A study of Mus musculus with 20 samples.

Results

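RNA polymerase II (RNA Pol II) domains of 3 or more peaks are stretches of the mouse genome where several RNA Pol II peaks lie close together in 3T3-L1 cells. They were found by joining the RNA Pol II peaks of 4 hours and of day 0 on each chromosome whenever the gap between them was 10 kb or less. The 27342 peaks of both lists gave 12963 joined domains, of which 3368 (26.0%) held 3 or more peaks and are the members described here. These 3368 members held 13711 peaks, 50.1% of all RNA Pol II peaks. Members were chosen by the positions and number of the RNA Pol II peaks themselves, so the number, spacing and width of the peaks are given as a description. Open chromatin and the transcription factors were measured in other libraries and played no part in the choice.

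The series followed 3T3-L1, a line of mouse preadipocytes, through differentiation into adipocytes by chromatin immunoprecipitation sequencing (ChIP-seq) and by sequencing of DNase I hypersensitive sites (DHS), which mark open chromatin. In the 4 hours group, cells had been exposed for 4 hours to the inducers fetal bovine serum, 3-isobutyl-1-methylxanthine (which slows the breakdown of cyclic AMP), insulin and dexamethasone (a synthetic glucocorticoid). Day 0 cells, the starting point, had been confluent for 2 days and had received none of these inducers. All cells were of the same line, with no genetic change named in the labels, and every group was 1 library, so nothing here was tested against replicate spread. The other lists used were DHS of day 0, 2 hours, 4 hours, day 1, day 2 and day 6, C/EBPbeta of day 0, 2 hours, 4 hours and day 2, C/EBPdelta of 4 hours and day 0, and PPARgamma of day 6 and day 2. The glucocorticoid receptor (GR), Stat5a and RXR were each mapped at 4 hours. By day 6 the cells had been switched to medium with insulin and serum on day 2 and then to medium with serum.

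RNA Pol II transcribes all protein-coding genes. It gathers at promoters, often pauses just downstream of the start site, and moves through the gene body when released, so a run of peaks can cover a promoter and the transcribed gene beside it, or several neighbouring promoters. It is also found at active enhancers. GR is a nuclear receptor that binds DNA after exposure to a glucocorticoid such as dexamethasone. C/EBPbeta and C/EBPdelta are early adipogenic transcription factors, Stat5a is activated by hormone and cytokine receptors, PPARgamma is the master regulator of the adipocyte, and RXR is its binding partner.

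The lists held 12558 RNA Pol II peaks at 4 hours and 14784 on day 0. They give the position of each peak with no height, score or read count, so the read depth behind a list is unknown and lists can be compared in length alone. The other 17 lists ranged between 2076 peaks (RXR) and 35389 peaks (DHS of day 1). Longer lists fill more domains, so shares are compared between groups of domains within a list, and not between lists.

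Most members were short in spite of the wide gap allowed. Their width ranged between 675 and 43045 bp with a median of 2446.5 bp, and 412 of the 3368 were 10 kb or wider. By number of peaks, 1680 members held 3, 874 held 4, 357 held 5, 210 held 6, 191 held 7 to 9 and 56 held 10 or more. Since a place bound at both times gives a peak in each list, overlapping peaks were also merged into sites. Of the members, 338 were a single site, 1851 (55.0%) held 2 sites, 727 (21.6%) held 3 and 452 (13.4%) held 4 or more. A run of many separate sites was therefore the exception. The number of members was 1179 when 3 distinct sites were required, 1265 when the wider 50% of each list was used and 814 when 5 peaks were required.

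The threshold fell between domains of 3 and of 2 peaks. Among the 1680 domains just inside it, with 3 peaks, 32 held 3 peaks of 4 hours alone, 819 held 2 of 4 hours and 1 of day 0, 793 held 1 of 4 hours and 2 of day 0, and 36 held 3 of day 0 alone. Their median width was 1760.5 bp. Among the 4036 domains just outside it, with 2 peaks, 3554 held 1 peak of each time, 157 held 2 of 4 hours and 325 held 2 of day 0, and their median width was 856 bp.

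Both times were listed in nearly every member, and in nearly equal number. Members held 6905 peaks at 4 hours and 6806 on day 0, so 50.4% of their peaks were of 4 hours, against 45.9% of the peaks in all joined domains. Peaks of both times were present in 3286 members (97.6%; 52.8% of all joined domains). Peaks of 4 hours alone were present in 40 (1.19%; 15.3% of all) and peaks of day 0 alone in 42 (1.25%; 31.9% of all). More peaks at 4 hours were listed in 1338 members (39.7%, 95% interval 38.1 to 41.4), beside 25.3% of all joined domains. Fewer peaks at 4 hours were listed in 1266 members (37.6%, 35.9 to 39.2), beside 41.4% of all joined domains. The other 764 members (22.7%) held equal numbers. These contrasts were part of the choice, since joined domains of 1 peak can never be equal or hold both times. Nothing is read from the background. Intervals of shares and densities are exact and those of differences between shares are Newcombe's, and all cover counting over domains or peaks of these libraries only.

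The small difference between the numbers of members with more and with fewer peaks at 4 hours had no stable direction. With a joining gap of 20 kb, 37.1% of members held more and 39.3% held fewer peaks at 4 hours. Among the members of 10 kb or wider, 145 (35.2%) held more and 160 (38.8%) held fewer. With the day 0 list cut to its 12558 widest peaks, the length of the 4 hours list, 46.5% held more and 31.2% held fewer. That setting takes away day 0 peaks alone, so nothing is read from this shift. By the base pairs that the peaks covered, 1751 members (52.0%) were higher at 4 hours, beside 40.9% of all joined domains. The peaks of 4 hours covered 4810515 bp inside members, against 4491350 bp for day 0, a ratio of 1.07. In joined domains of 1 or 2 peaks this ratio was 0.764, with 0.462 at 1 peak and 0.927 at 2. Among members it was 1.04 at 3 peaks, 1.06 at 4, 1.07 at 5, 1.12 at 6, 1.16 at 7 to 9 and 1.13 at 10 or more. The base pairs are those of the peaks that made the choice, so these values are a description and nothing is read from their order.

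A large imbalance was rare. At least 2-fold more peaks at 4 hours were listed in 1107 members (32.9%; 23.5% of all joined domains), and at least 2-fold fewer in 1056 (31.4%; 39.8% of all joined domains), but most of these were pairs such as 2 peaks against 1. The difference was 1 peak in 1022 members with more and 980 members with fewer at 4 hours. A difference of 3 or more peaks was reached by 108 members with more peaks at 4 hours (3.21%; 0.833% of all joined domains) and by 107 with fewer (3.18%; 0.825% of all joined domains). Domains of 1 or 2 peaks cannot reach that difference. The plot of domain size and balance shows how steeply the number of members falls with the number of peaks.

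**Figure D1:**
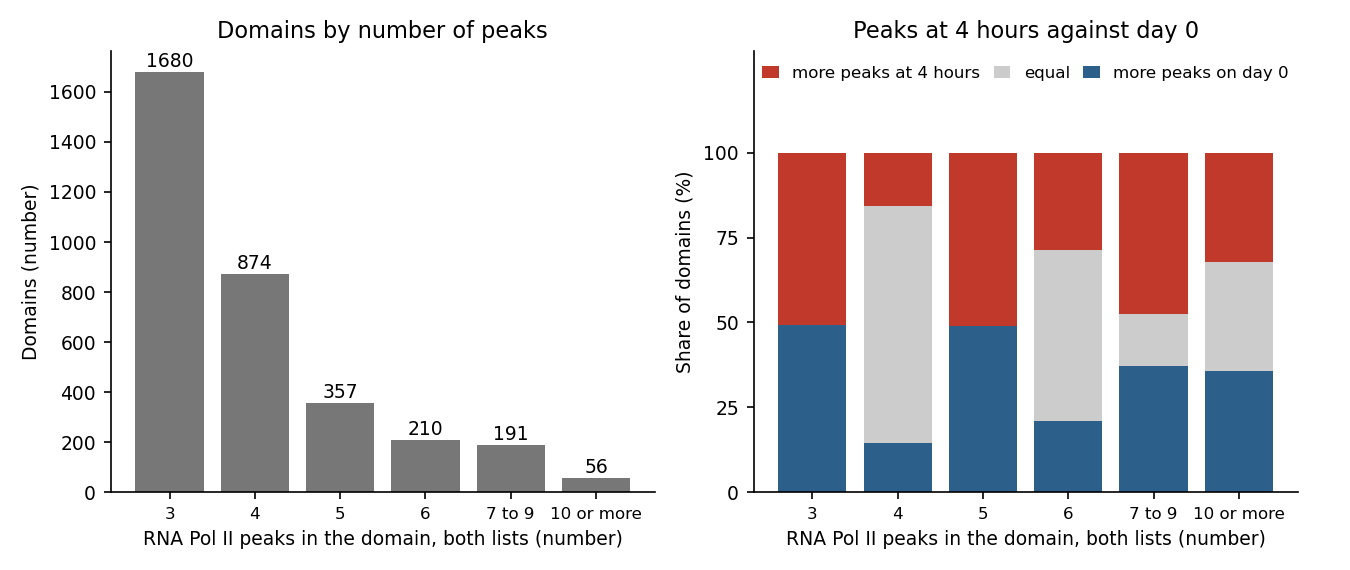
Left, the number of members by the number of RNA Pol II peaks of both times that they hold. Right, the percentage of members in each size class with more peaks at 4 hours, equal numbers, and more peaks on day 0: at 3 peaks no domain can be equal and the shares with more and with fewer at 4 hours are 50.7% and 49.3%.

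Inside members, sites present at both times were most often open. The members held 8404 sites, of which 4444 were listed at both times, 2025 at 4 hours alone and 1935 on day 0 alone. A DHS of 4 hours overlapped 83.5% (82.4 to 84.6) of the shared sites, 38.7% (36.6 to 40.9) of those at 4 hours alone and 39.3% (37.1 to 41.5) of those on day 0 alone. The intervals of both kinds of single-time site overlap. A DHS of day 0 lay at 55.0% of the shared sites, at 10.5% (9.22 to 11.9) of those at 4 hours alone and at 22.2% (20.4 to 24.1) of those on day 0 alone. Shared sites were wider, with a median of 845 bp, against 433 bp for sites of 4 hours alone and 416 bp for sites of day 0 alone. In the central 200 bp of each site, the DHS of 4 hours was found at 77.5%, 34.3% and 36.2% of the 3 kinds.

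By the DHS of 4 hours, sites of a single time were open more often in members than in domains of 1 or 2 peaks. In joined domains of 1 or 2 peaks, a DHS of 4 hours overlapped 27.7% (25.9 to 29.6) of the 2328 sites at 4 hours alone and 31.4% (30.1 to 32.7) of the 4654 on day 0 alone. In the central 200 bp, which their smaller width does not enter, these shares were 26.0% and 30.3%, below those of members. Domains of 1 peak have no second site, whereas most members do, and a DHS at a close neighbour can reach into a site. The central 200 bp does not remove this, and its part in the contrast was not tested. For the shared sites the share over the whole site was 84.4% (83.1 to 85.6), which overlaps the interval of the members, but in the central 200 bp it was 77.5% in members and 82.8% in domains of 1 or 2 peaks. A DHS of day 0 did not lie more often at both kinds of single-time site in members. At sites of 4 hours alone it lay at 10.5% (9.22 to 11.9) in members and 12.1% (10.8 to 13.5) in domains of 1 or 2 peaks. At sites of day 0 alone these shares were 22.2% (20.4 to 24.1) and 17.0% (15.9 to 18.1).

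Open chromatin was found in nearly all members at 4 hours and on day 1. DHS lay inside 67.2% of members on day 0, against 28.4% of joined domains of 1 or 2 peaks and 38.5% of all joined domains. At 2 hours the shares were 46.5% of members, 16.8% of domains of 1 or 2 peaks and 24.5% of all. At 4 hours they were 90.2% (89.1 to 91.2) of members, 49.4% (48.4 to 50.4) of domains of 1 or 2 peaks and 60.0% of all. On day 1 they were 90.1%, 50.2% and 60.6%, on day 2 they were 84.4%, 41.8% and 52.9%, and on day 6 they were 76.7%, 35.4% and 46.1%, in the same order of members, domains of 1 or 2 peaks and all. Members exceeded domains of 1 or 2 peaks by between 29.7 and 42.5 percentage points in the 6 lists. Most of this contrast lay with domains of 1 peak. DHS of 4 hours lay inside 28.1% of domains of 1 peak, 78.8% of those of 2 peaks and 88.0% of members of 3 peaks. Median widths also rose, at 356, 856 and 1760.5 bp, and no allowance is made for width here.

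Many members held open chromatin at every time. All 6 DHS lists had a peak inside 1423 members (42.3%, 40.6 to 43.9), against 13.7% (13.0 to 14.4) of domains of 1 or 2 peaks and 21.1% of all joined domains. None of the 6 had one inside 259 members (7.69%), against 46.4% of domains of 1 or 2 peaks and 36.3% of all. A DHS was inside at 4 hours and not on day 0 in 779 members (23.1%, 21.7 to 24.6), beside 21.8% of all joined domains, a share near the background. The opposite, a DHS inside on day 0 and not at 4 hours, was listed in 4 members (0.119%), beside 0.301% of all.

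Per base pair, members held fewer DHS than domains of 1 or 2 peaks. Per 10 kb of domain, members held 3.36 DHS of 4 hours and domains of 1 or 2 peaks held 6.86. A peak counted as inside at an overlap of 1 bp. The median width was 496 bp for domains of 1 or 2 peaks and 599 bp for DHS of 4 hours. Such counting raises the density of short domains, so nothing is read from this contrast. The 412 members of 10 kb or wider held a DHS of 4 hours in 86.7% (83.0 to 89.8) of cases, against 90.7% (89.6 to 91.7) of the 2956 shorter members. The order depended on the time. On day 0 the shares were 74.3% (69.8 to 78.4) of wide and 66.2% (64.4 to 67.9) of shorter members. At 2 hours they were 57.5% (52.6 to 62.3) and 44.9% (43.1 to 46.7). In the same order they were 87.4% and 90.4% on day 1, 82.5% and 84.6% on day 2, and 77.2% and 76.6% on day 6.

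Transcription factors lay inside a minority of members. C/EBPbeta was inside 27.9% on day 0, 24.2% at 2 hours, 32.0% (30.4 to 33.6) at 4 hours and 21.6% on day 2, against 11.0%, 9.09%, 12.1% and 6.83% of domains of 1 or 2 peaks. Over all joined domains its shares were 15.4%, 13.0%, 17.3% and 10.7%. C/EBPdelta was inside 23.6% of members at 4 hours and 10.8% on day 0, against 7.52% and 2.87% of domains of 1 or 2 peaks and 11.7% and 4.92% of all.

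The factors of shorter lists were rarer still. GR was inside 120 members (3.56%, 2.96 to 4.25), against 1.72% of domains of 1 or 2 peaks and 2.20% of all. By number of peaks, the GR share was 2.14% (1.78 to 2.56) at 1 peak and 1.14% at 2 peaks. Among members it was 2.38% (1.71 to 3.23) at 3 peaks, 3.32% at 4 and 6.27% at 5 or more. Stat5a was inside 5.91%, against 2.04% and 3.05%, and RXR was inside 2.20%, against 0.917% and 1.25%. PPARgamma was inside 8.49% of members on day 6 and 4.07% on day 2, against 2.47% and 1.28% of domains of 1 or 2 peaks and 4.03% and 2.01% of all. The share of members with GR was 6.27% when 5 peaks were required and 6.28% when 3 distinct sites were required.

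Of the 5 factors mapped at 4 hours, none was inside 2132 members (63.3%, 61.6 to 64.9), against 86.4% (85.7 to 87.1) of domains of 1 or 2 peaks and 80.4% of all joined domains. All 5 were inside 27 members (0.802%, 0.529 to 1.16), against 0.532% (0.396 to 0.698), beside 0.602% of all, and these intervals overlap. Per 10 kb of domain the factors, too, were less dense in members, with 0.0862 GR peaks against 0.230 in domains of 1 or 2 peaks, 0.906 against 1.67 for C/EBPbeta of 4 hours and 0.154 against 0.279 for Stat5a. As for DHS, counting at an overlap of 1 bp raises the density of short domains, so nothing is read from these values. The plot of shares inside sets members beside the shorter domains for all 17 lists.

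**Figure D2:**
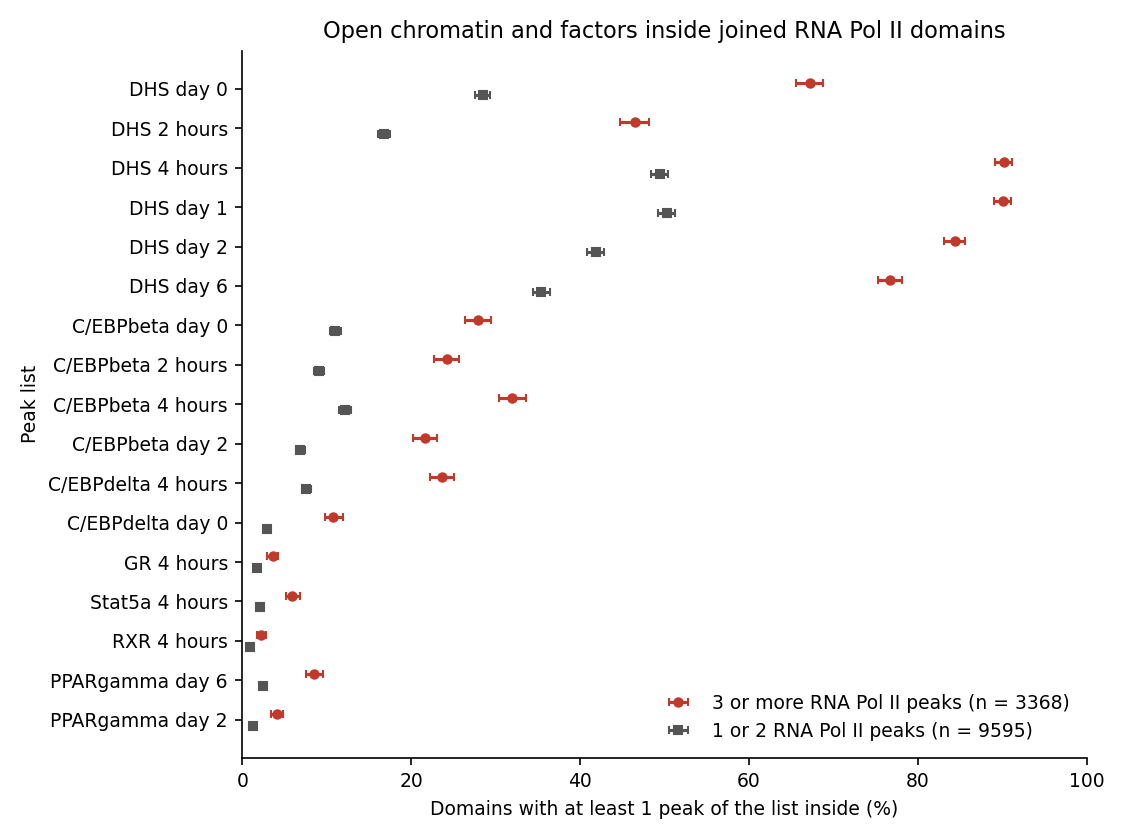
The percentage of domains with a peak of each list inside, for members and for joined domains of 1 or 2 peaks, with exact 95% intervals over domains as error bars. Members lie above in all 17 lists, by 40.7 percentage points for DHS of 4 hours and by 1.84 points for GR, without allowance for their greater width.

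The neighbourhood of members was richer in open chromatin and factors than that of domains of 1 or 2 peaks, in a measure that the width of the domain does not enter. Within 50 kb on both sides, leaving out all joined domains, DHS of 4 hours lay at 1.80 per 100 kb (1.75 to 1.85) around members and 1.23 (1.20 to 1.25) around domains of 1 or 2 peaks, with 0.859 outside all joined domains over the genome. C/EBPbeta of 4 hours lay at 1.92 (1.87 to 1.97) around members and 1.36 (1.33 to 1.38) around the shorter domains, with 1.06 over the genome. GR lay at 0.232 (0.215 to 0.251) around members and 0.180 (0.171 to 0.190) around the shorter domains, with 0.148 over the genome.

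All 17 lists were denser around members than around domains of 1 or 2 peaks. The ratio was lowest for GR, at 1.29, and highest for PPARgamma, at 1.62 on day 6 and on day 2. Among the DHS lists it ran between 1.43 (day 1) and 1.55 (day 2), and it was 1.42 for C/EBPbeta at 4 hours. The flanks of neighbouring domains overlap in part, and each stretch of flank was counted once within a group of domains.

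Members with more RNA Pol II peaks at 4 hours held GR more often than members with fewer. GR was inside 71 of 1338 members with more (5.31%, 4.17 to 6.65) and 33 of 1266 members with fewer (2.61%, 1.80 to 3.64), a difference of 2.70 percentage points (1.21 to 4.23). Inside or within 50 kb the shares were 22.1% of members with more and 16.5% of members with fewer, beside 14.6% of all joined domains, a difference of 5.61 points (2.58 to 8.63). Of the 120 members with GR inside, 71 (59.2%, 49.8 to 68.0) held more peaks at 4 hours, 16 held equal numbers and 33 (27.5%) held fewer. The difference in GR share was 5.49 points when 5 peaks were required, 6.12 points when 3 distinct sites were required, 5.35 points with the wider 50% of each list and 8.10 points among members of 10 kb or wider. It was positive in all of these.

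C/EBPdelta and Stat5a of 4 hours and C/EBPbeta of 2 and 4 hours were also inside members with more peaks at 4 hours more often than inside members with fewer. C/EBPdelta of 4 hours was inside 340 of 1338 members with more peaks at 4 hours (25.4%) and 241 of 1266 members with fewer, a difference of 6.37 points (3.18 to 9.54). C/EBPbeta of 4 hours was inside 34.2% and 28.2%, a difference of 6.03 points (2.47 to 9.56), and C/EBPbeta of 2 hours inside 25.8% and 20.9%, a difference of 4.85 points (1.60 to 8.08). Stat5a was inside 7.32% and 4.27%, a difference of 3.06 points (1.27 to 4.87). Inside or within 50 kb, the differences of these 4 lists were 2.39 (-1.27 to 6.05) for C/EBPdelta of 4 hours, 1.26 (-1.89 to 4.42) for C/EBPbeta of 4 hours, 1.60 (-1.97 to 5.18) for C/EBPbeta of 2 hours and 2.03 (-1.50 to 5.54) for Stat5a, and all their intervals include zero. C/EBPbeta of day 2 was inside 22.0% and 19.3%, with an interval of -0.414 to 5.80 points for the difference. On day 0, C/EBPbeta was inside 27.1% of members with more and 27.6% of members with fewer, and the interval of that difference, -3.94 to 2.91 points, includes zero. C/EBPdelta of day 0 was inside 8.89% of members with more and 11.9% of members with fewer, a difference of -3.03 points (-5.40 to -0.688).

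Among the DHS, RXR and PPARgamma lists, only DHS of 2 hours had a difference inside these classes whose interval excludes zero. It lay inside 46.3% of members with more peaks at 4 hours and 42.3% of members with fewer, a difference of 4.00 points (0.187 to 7.80). Inside or within 50 kb the shares of DHS of 2 hours were 67.6% and 63.2%, a difference of 4.45 points (0.793 to 8.09). DHS of 4 hours lay inside 90.1% and 88.0%, and the interval of the difference, -0.336 to 4.49 points, includes zero. With both RNA Pol II lists at equal length the sign of this last difference turned, to -1.21 points (-3.52 to 1.22). PPARgamma of day 6 was inside 8.45% of both classes. RXR was inside 2.54% and 1.74%, with an interval of -0.331 to 1.95 points for the difference. Median widths were close, at 2249 bp for members with more and 2422.5 bp for members with fewer.

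Around the domains, too, GR had the highest ratio between these classes of all 17 lists. Its density within 50 kb was 0.286 per 100 kb around members with more peaks at 4 hours and 0.186 around members with fewer, a ratio of 1.54. The ratio for RXR was 1.30, for Stat5a 1.15, for C/EBPbeta of 4 hours 1.11 and for DHS of 4 hours 1.08. It was above 1 in 15 of the 17 lists, and below it for DHS of day 0 (0.959) and C/EBPbeta of day 0 (0.977).

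The contrast was wider at the ends of the scale. Of the 108 members with 3 or more peaks more at 4 hours, 18 held GR inside (16.7%, 10.2 to 25.1), whereas 2 of the 107 members with 3 or more fewer did (1.87%, 0.227 to 6.59). The difference was 14.8 points (7.29 to 23.1) although the first class was narrower, with a median width of 5926.5 bp against 7972 bp. Inside or within 50 kb, GR was present for 38.0% of the first class and 20.6% of the second, a difference of 17.4 points (5.24 to 28.9). At 4 hours, C/EBPdelta was inside 47.2% and 26.2%, a difference of 21.1 points (8.18 to 33.0), and C/EBPbeta inside 51.9% and 37.4%, a difference of 14.5 points (1.19 to 27.0). Stat5a was inside 17.6% and 6.54%, and RXR inside 7.41% and 0.935%. Inside or within 50 kb the intervals of the difference include zero for all 4, with 74.1% and 74.8% for C/EBPdelta of 4 hours, 78.7% and 83.2% for C/EBPbeta of 4 hours, 47.2% and 42.1% for Stat5a and 24.1% and 14.0% for RXR. With a difference of 2 or more peaks in place of 3, the difference was 8.88 points for GR and 11.7 points for C/EBPdelta of 4 hours.

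Several factors together were also found more often in the first of these classes. At least 3 of the 5 factors of 4 hours were inside 21 of 108 members with 3 or more peaks more (19.4%, 12.5 to 28.2), against 5 of 107 members with 3 or more fewer (4.67%, 1.53 to 10.6) and 3.17% of all joined domains. Factors of day 0 did not follow: C/EBPbeta of day 0 was inside 37.0% and 40.2%, and C/EBPdelta of day 0 inside 10.2% and 17.8%, both with intervals of the difference that include zero.

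DHS at these ends differed at 2 hours and not clearly at other times. DHS of 2 hours lay inside 53.7% of the members with 3 or more peaks more at 4 hours and 30.8% of those with 3 or more fewer, a difference of 22.9 points (9.67 to 35.0). With both RNA Pol II lists at equal length it was 12.7 points, with an interval of -2.77 to 27.1 that includes zero, with a joining gap of 20 kb it was 13.6 points, and with a difference of 2 or more peaks 10.9 points. DHS of 4 hours lay inside 79.6% and 78.5%. DHS of day 0 lay inside 49.1% and 61.7%, with an interval of -25.3 to 0.659 points for the difference. Between the ends, the GR share did not climb evenly. It was 3.91% (1.59 to 7.89) in the 179 members with 2 peaks fewer at 4 hours, 2.45% (1.58 to 3.62) with 1 fewer and 2.09% (1.20 to 3.38) with equal numbers. It was 3.23% (2.23 to 4.50) with 1 more and 9.62% (5.97 to 14.5) in the 208 members with 2 more, as the plot of shares by difference shows. Median widths differed between these classes, at 1919, 4360.5 and 5926.5 bp with 1, 2 and 3 or more peaks more. They were 2049, 4609 and 7972 bp with 1, 2 and 3 or more fewer, and 2880 bp with equal numbers. Shares inside carry no allowance for this, so the rise with the size of the difference is not separate from width. DHS of 4 hours was inside 94.0% of members with equal numbers, the highest share of the 7 classes.

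**Figure D3:**
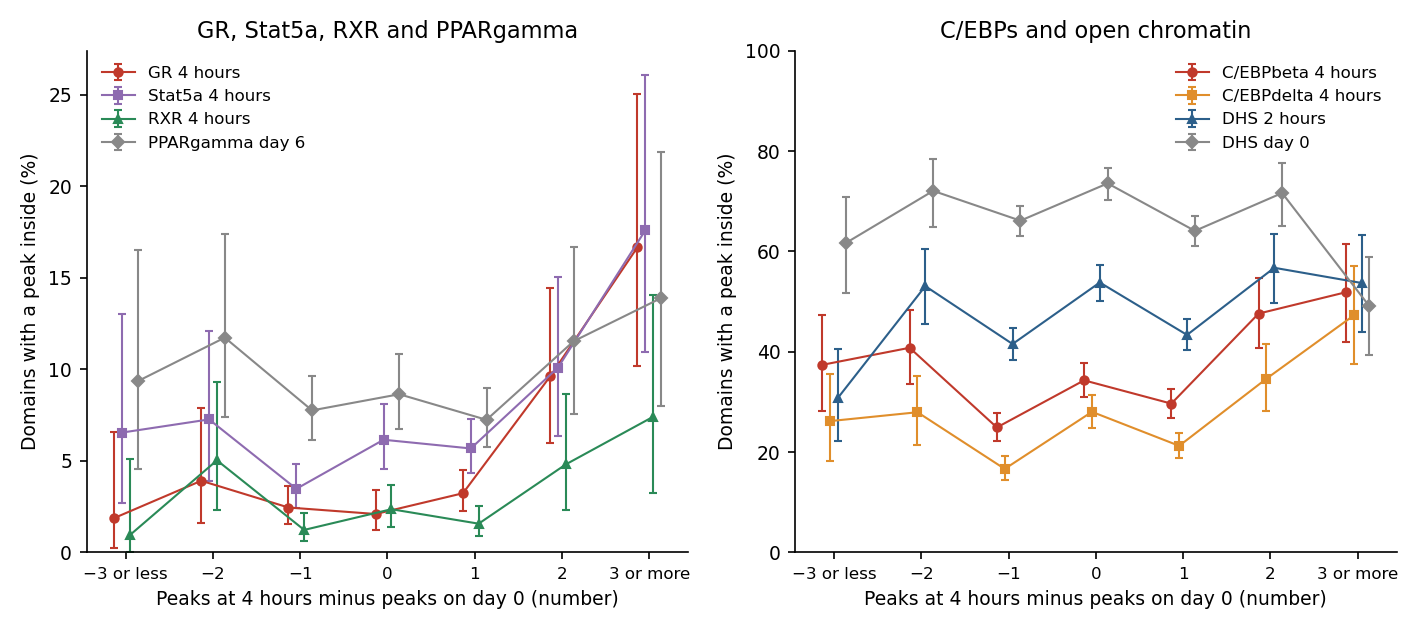
The percentage of members with a peak inside, by the number of peaks at 4 hours minus the number on day 0, with exact 95% intervals over domains as error bars. GR lies at 1.87% in members with 3 or more peaks fewer at 4 hours and at 16.7% in members with 3 or more peaks more, and DHS of day 0 is lowest, at 49.1%, in members with 3 or more peaks more. Median width differs between the classes, and no allowance is made for it.

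Factor peaks inside members also differed in the RNA Pol II peaks they overlapped. Each peak was sorted by whether it overlapped RNA Pol II peaks of 4 hours only, of day 0 only, of both times or of neither. Of 133 GR peaks inside members, 58 (43.6%, 35.0 to 52.5) overlapped RNA Pol II of 4 hours only, 16 (12.0%, 7.04 to 18.8) of day 0 only, 44 (33.1%) of both times and 15 (11.3%) of neither. The lean of GR to 4 hours was not particular to members. GR lay at 2.96% of member sites of 4 hours alone, 0.879% of those of day 0 alone and 1.19% of shared sites, and in domains of 1 or 2 peaks at 3.99%, 1.18% and 0.662%. Inside members, GR was the only list of the 17 in which overlap with 4 hours only was more frequent than overlap with both times. Of 237 Stat5a peaks, 27.8% overlapped RNA Pol II of 4 hours only and 13.1% of day 0 only, and of 84 RXR peaks 29.8% and 10.7%. C/EBPdelta of 4 hours had 22.8% and 11.2% of 1039 peaks there, and C/EBPbeta of 4 hours 22.8% and 13.1% of 1397 peaks.

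Peaks of day 0 had another distribution. Of 443 C/EBPdelta peaks of day 0, 4.29% overlapped RNA Pol II of 4 hours only, 11.5% of day 0 only and 80.8% of both times. Of 2887 DHS of day 0, 4.30% overlapped it at 4 hours only, 9.98% on day 0 only and 82.7% at both times. C/EBPbeta of day 0 was even, with 16.3% for 4 hours only and 16.7% for day 0 only of 1139 peaks. RNA Pol II sites covered 41.1% of the base pairs of members, and 11.3% of GR peaks and 4.94% of DHS of 4 hours inside members overlapped none of them. With many gaps no wider than a peak, an overlap of 1 bp is reached easily in such domains, so nothing is read from these last shares.

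**Figure D4:**
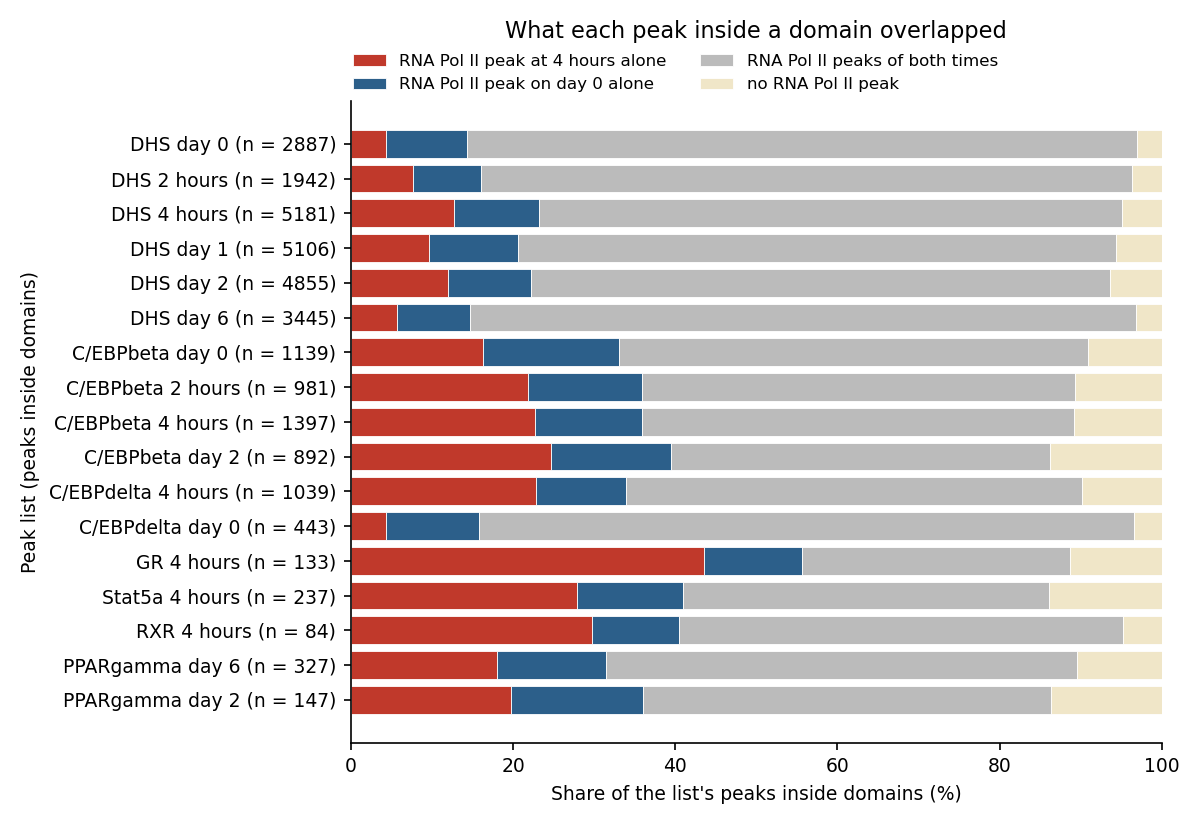
For each list, the percentage of its peaks inside members that overlap RNA Pol II peaks of 4 hours only, of day 0 only, of both times, or none. GR has the largest percentage for 4 hours only (43.6% of 133 peaks), and DHS of day 0 and C/EBPdelta of day 0 have the smallest (4.30% and 4.29%).

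The 452 members with 4 or more sites come closest to long domains, with a median width of 9891 bp. Of their 2183 sites, 50.5% overlapped a DHS of 4 hours and 26.6% a DHS of day 0. The gaps between neighbouring sites had a median of 595 bp, with quartiles of 207 and 3045 bp. In 336 of these members (74.3%) a DHS of 4 hours lay at 2 or more sites, in 68 (15.0%) at none, and in 48 (10.6%) at a single site. In these 48 the single open site was the first or last of the domain in 36 of them (95% interval 60.4% to 86.4%), whereas end sites made up on average 45.9% of their sites. It was also the widest site in 33 of the 48. With gaps this short a DHS can overlap neighbouring sites, and an end site has a neighbour on a single side only. Single open sites are thereby favoured at the ends, so nothing is read from their share there. In the 187 members of 3 sites with a single open site, that site was at an end in 117 (62.6%, 55.2 to 69.5), near the 66.7% that end sites make up there.

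The 412 members of 10 kb or wider had a median width of 12476.5 bp and a median of 6 peaks. They held 1245 peaks at 4 hours and 1282 on day 0. Of these wide members, 192 (46.6%) held 3 or more DHS of 4 hours and 55 (13.3%) held none, and 65 (15.8%) held 3 or more DHS of day 0 and 106 (25.7%) held none. The DHS list of 4 hours is the longer one, with 31751 peaks against 9989 on day 0, so here and for single members these numbers are given side by side and not compared. C/EBPbeta of 4 hours was inside 51.5% of the wide members and 29.3% of the 2956 shorter ones, and GR inside 6.55% (4.36 to 9.39) and 3.15% (2.55 to 3.84). Per 10 kb both were lower in the wide members, at 0.603 and 1.10 peaks for C/EBPbeta and 0.0553 and 0.106 for GR. Counting at an overlap of 1 bp raises this density in the shorter members, so nothing is read from it.

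Single members show what these counts are made of. Positions are on mouse genome build mm9, counted from 1, and no gene is given for them because no annotation of that build was used here. The largest and widest member, chr13:23635026-23678070, spanned 43045 bp and held 23 peaks, 13 at 4 hours and 10 on day 0. These formed 14 sites, 9 of them shared. It held 7 DHS at 4 hours and 6 on day 0, with 13 DHS on day 2, 2 C/EBPbeta peaks at 4 hours and no GR. On the same chromosome, chr13:23830436-23854552 held 8 peaks at each time, with 7 DHS at 4 hours and 2 on day 0.

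A pair of large members on chromosome 17 had no open chromatin. The member at chr17:15143083-15159518 held 8 peaks at each time and chr17:15112461-15128150 held 7 at each time, and neither had a DHS at any of the 6 times. Both held C/EBP peaks all the same, with 3 and 4 C/EBPbeta peaks at 4 hours, 3 on day 0 in each, and 3 C/EBPdelta peaks at 4 hours in each. PPARgamma also had 1 peak in each on day 6 and on day 2. The 33000 bp member at chr2:177338135-177371134 held 4 peaks at 4 hours and 7 on day 0 and likewise no DHS at any time. Whether these 3 places hold repeated sequence, which can give peaks of its own, was not tested, since no mm9 genome was used here. The last of the 5 members with the most peaks, chr2:121273657-121300169, held 8 peaks at 4 hours and 6 on day 0, with 3 DHS at 4 hours and 1 on day 0.

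The remaining widest members were open at both times. The 35580 bp member at chr8:125074221-125109800 held 6 peaks at 4 hours and 4 on day 0, with 5 DHS at 4 hours and 3 on day 0. At chr10:79604869-79636081, 7 peaks at 4 hours and 6 on day 0 went with 9 DHS at 4 hours and 5 on day 0. At chr1:72272503-72303170, 4 peaks at each time formed 4 shared sites, with 4 DHS at 4 hours and 2 on day 0 and with 4 C/EBPdelta peaks at 4 hours and 3 on day 0.

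The 5 members with the largest excess at 4 hours each held 5 to 7 sites of 4 hours alone beside 0 to 2 shared sites. The largest was chr5:114222529-114250743, with 9 peaks at 4 hours and 2 on day 0, which covered 6043 bp and 1677 bp. It held 7 DHS at 4 hours and 3 on day 0. At chr2:148226441-148234050 there were 7 peaks at 4 hours and 1 on day 0, with 3 DHS at 4 hours and 0 on day 0. At chr1:40496637-40506969 all 6 peaks were of 4 hours, with 3 DHS at 4 hours and 0 on day 0. It alone among the 5 had no RNA Pol II peak on day 0.

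The other members of this kind were chr4:150228968-150248621 and chr19:5447512-5461051, with 7 peaks at 4 hours and 2 on day 0 each. The first included a single 4 hours peak of 8175 bp and held 1 GR peak, 3 C/EBPbeta peaks and 5 C/EBPdelta peaks of 4 hours. GR was inside 1 of these 5 members, beside 3.56% of all members and 2.20% of all joined domains, and nothing is read from so few. Counted inside or within 50 kb, there were 3, 3 and 4 GR peaks at the members on chromosomes 2, 1 and 4 and 0 at those on chromosomes 5 and 19.

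The 5 members with the largest excess on day 0 held no GR inside, beside 3.56% of all members and 2.20% of all joined domains. With GR this rare, nothing is read from its absence in 5 members. The largest, chr19:5794100-5804749, had 3 peaks at 4 hours and 10 on day 0, but these covered 5238 bp at 4 hours and 7560 bp on day 0 of its 10650 bp. It was open at both times, with 7 DHS at 4 hours and 2 on day 0. At chr9:107877903-107889211 there was 1 peak at 4 hours and there were 7 on day 0, covering 661 bp at 4 hours and 3926 bp on day 0, with 3 DHS at 4 hours and 1 on day 0.

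The member at chr13:81021465-81025846 also held 1 peak at 4 hours and 7 on day 0. Its 4 hours peak was 2461 bp wide, so the base pairs covered were 2461 at 4 hours and 3181 on day 0, and the difference in number overstates the difference in cover. At chr13:40810636-40828710 there were 4 peaks at 4 hours and 9 on day 0, and at chr5:125862063-125873085 there were 2 at 4 hours and 7 on day 0. Each of the 5 had at least 3 DHS at 4 hours. GR peaks lay within 50 kb of 1 of the 5, the member on chromosome 19, with 4. Over all members this share was 18.7%, and over all joined domains 14.6%.

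**Figure D5:**
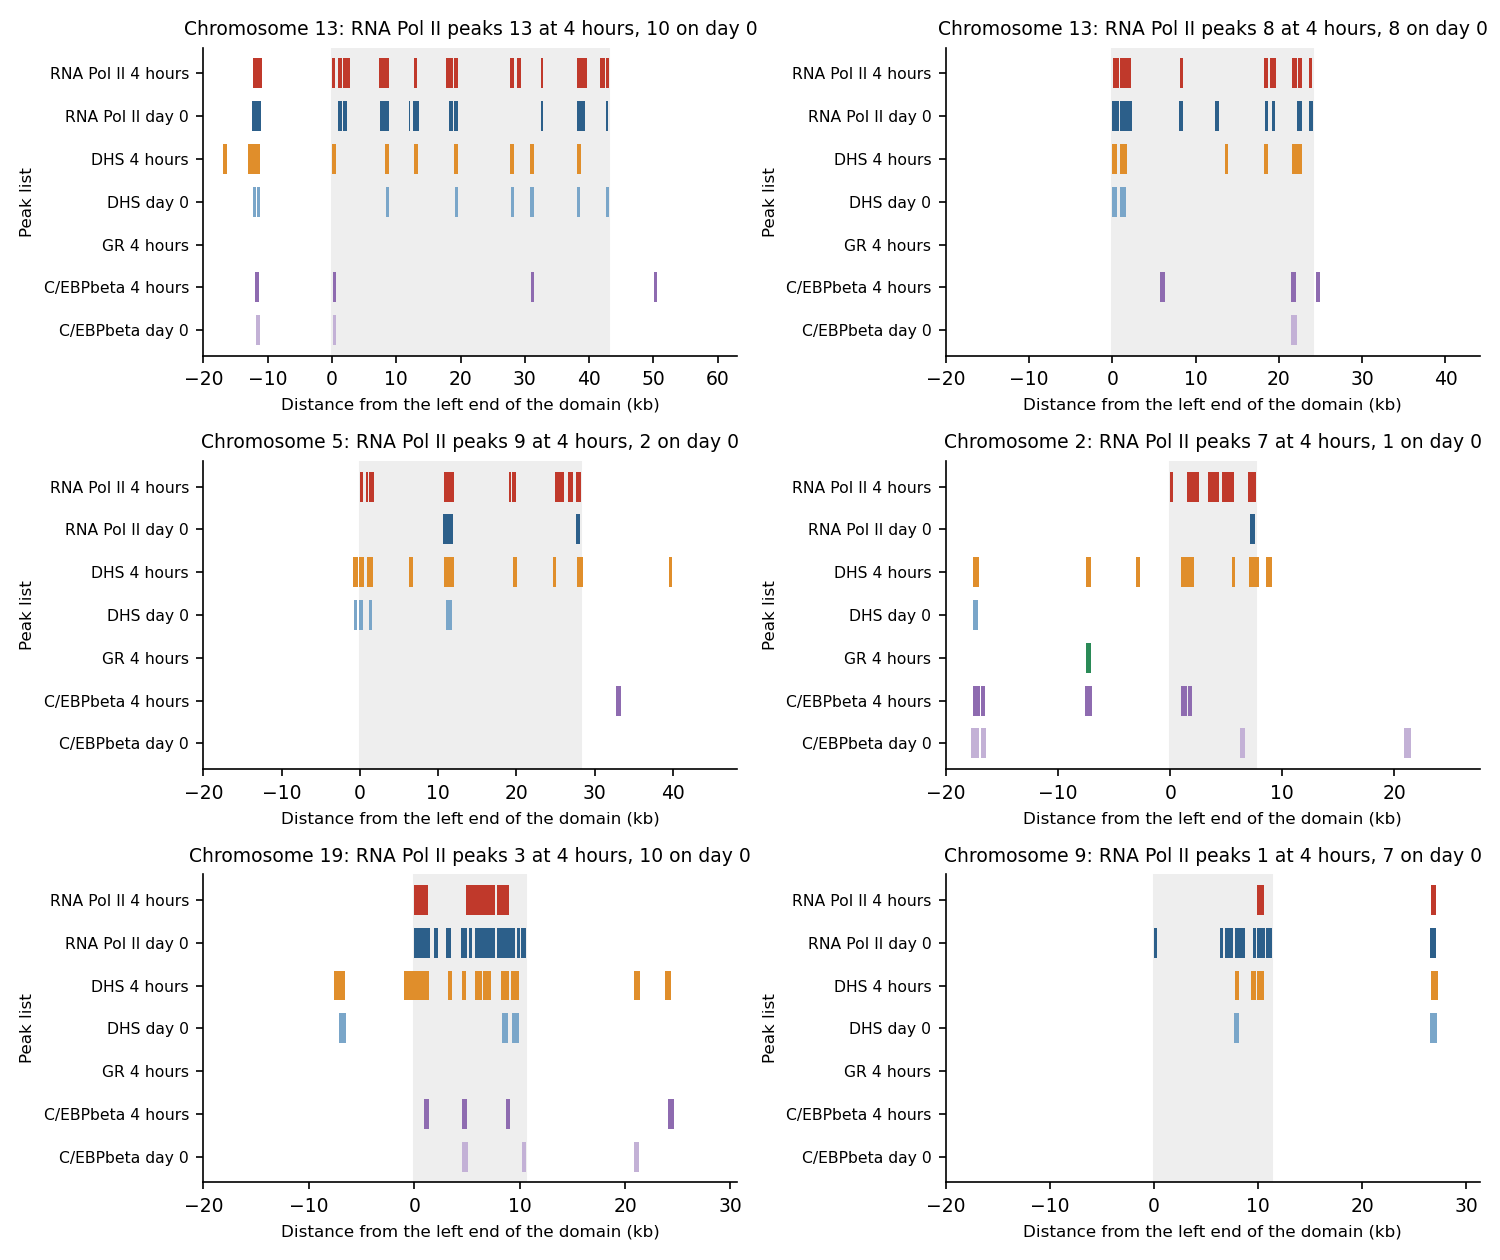
Peaks in 6 members (grey band) and 20 kb on each side, by distance from the left end of the member, with 1 row per list and bars drawn to scale. The top row shows the members with 23 and 16 peaks, the middle row the largest excesses at 4 hours (9 and 7 peaks against 2 and 1 on day 0) and the bottom row the largest excesses on day 0 (3 and 1 peaks at 4 hours against 10 and 7).

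The members richest in factors were other ones. GR had 3 peaks inside each of chr19:47386455-47412740, chr17:27269654-27292906 and chr6:129179578-129187606. C/EBPbeta of 4 hours had 6 peaks inside chr19:5825455-5847665 and 5 inside each of the same members on chromosomes 17 and 6. All 4 of these members held all 5 factors of 4 hours. The member on chromosome 17 held 5 RNA Pol II peaks at 4 hours and 2 on day 0, with 4 DHS at 4 hours and 3 on day 0. The one on chromosome 6 held only 3 peaks, 1 at 4 hours and 2 on day 0, none of them shared, beside 5 DHS at 4 hours and 4 on day 0.

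Both members on chromosome 19 held 7 RNA Pol II peaks at 4 hours and 5 on day 0. At chr19:47386455-47412740 PPARgamma had 3 peaks on day 6 and 2 on day 2, and C/EBPbeta had 4 peaks at 4 hours and 5 on day 0. At chr19:5825455-5847665 the RNA Pol II peaks covered 12528 bp at 4 hours and 7047 bp on day 0, with 8 C/EBPdelta peaks at 4 hours and 3 on day 0. This last member lies 20705 bp to the right of the member with the largest excess on day 0.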

How the data were processed

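The authors deposited 1 peak list per sample, 6 from DHS sequencing and 13 from ChIP-seq, each giving chromosome, start and end in base pairs with no score, signal or count. Per the submitters' processing notes, the positions refer to mouse genome build mm9. The peak caller, its threshold and the read depth are not given in the sources used here, so depth is unknown, and the input control was not analysed here. All 19 lists were used as deposited. RNA Pol II peaks of both times were joined over gaps of up to 10000 bp, members held 3 or more, and overlapping peaks were merged into sites. A peak lay inside a domain at an overlap of 1 bp or more. Flanks reached 50 kb on both sides without any joined domain, and peaks there were placed by their middle. Shares carry Clopper-Pearson exact 95% intervals, differences of shares Newcombe intervals and densities exact Poisson intervals. With 1 library per group no test was run.

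SciPy 1.17.1 gave the intervals, NumPy 2.4.6 the counts and Matplotlib 3.10.9 the plots, all under Python 3.11.15, and the joining and counting were tested on simulated data. Members, classes and lists were chosen with earlier results of these data known. Named members were the 5 with the most peaks, the 5 widest, the 5 with the largest excess at each time, and the 3 with the most GR and the 3 with the most C/EBPbeta peaks of 4 hours, with ties settled by peaks, then width. Alternatives were gaps of 5 and 20 kb, 5 peaks, 3 distinct sites, the wider 50% of each RNA Pol II list, lists of equal length by width, 50% of a peak inside, base pairs for peaks, and flanks of 20 and 100 kb. The gene annotation at hand was of build GRCm38.p6, so members are named by position, and genes, promoters and sequences were left out.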

Additional observations from a re-analysis of the deposited data

How the results depend on the processing

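Of 86 values recomputed under alternatives, 48 stayed within the interval of the reported value (for the number of members, within 1.5 times), 37 moved beyond it and 1 turned its sign. The cause of each move was not tested beyond what the alternative itself sets. A gap of 5 kb gave 41.8% of members with more peaks at 4 hours and a C/EBPbeta density of 1.98 per 100 kb. A gap of 20 kb gave 37.1% with more and 39.3% with fewer, GR inside 4.44% and a DHS density of 1.74. Requiring 5 peaks left 814 members, with 43.1% more, GR inside 6.27%, DHS of 4 hours inside 92.1%, a GR difference of 5.49 points and densities of 0.306 (GR), 2.01 (DHS) and 2.15 (C/EBPbeta). Requiring 3 distinct sites left 1179 members, with GR inside 6.28%, DHS inside 86.3% and a GR difference of 6.12 points. The wider 50% of each list left 1265 members, with 42.3% more, 34.3% fewer, DHS inside 97.6% and a GR difference of 5.35 points. Lists of equal length gave 46.5% more, 31.2% fewer, DHS inside 91.6% and a DHS difference of -1.21 points, the single change of sign. With 50% of the peak inside, GR was inside 2.94% and DHS inside 88.9%. By base pairs, 52.0% were higher and 47.9% lower at 4 hours. Flanks of 20 kb gave densities of 0.256 (GR), 2.03 (DHS) and 2.17 (C/EBPbeta), and flanks of 100 kb gave 1.66 (DHS) and 1.81 (C/EBPbeta).

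Settings added after seeing the data were members of 10 kb or wider, with 35.2% more peaks at 4 hours and a GR difference of 8.10 points, members with a DHS at 1 or more times, and those for the classes with a difference of 3 or more peaks. The GR difference stayed positive throughout, between 2.05 and 8.10 points for all members with more or fewer peaks and between 8.88 and 18.0 points for the classes at the ends. No paired analysis was possible because every group was 1 library and the labels carry no replicate numbers. Without heights or depth, a place missing from a list may lie below the threshold used.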

Other observations

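The 259 members with no DHS inside at any of the 6 times differed in makeup from the 3109 with one. Any of the 5 factors of 4 hours was inside 34 of them (13.1%, 95% interval 9.27 to 17.9), against 38.7% (36.9 to 40.4) of members with a DHS. Peaks of a single time only made up 25 of them (9.65%, 6.34 to 13.9), against 1.83% (1.39 to 2.37). Of all joined domains, 80.4% held none of the 5 factors, 15.3% held peaks of 4 hours alone and 31.9% peaks of day 0 alone. Members without DHS are therefore set beside other members only. Members without DHS were also more often 10 kb or wider (18.9%, 14.3 to 24.2, against 11.7%, 10.6 to 12.9) and had a median of 3 sites, against 2. Of these members without DHS, 111 held more peaks at 4 hours and 114 fewer.

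The X chromosome held few members. Of its 797 joined domains, 123 were members (15.4%, 13.0 to 18.1), against 3244 of 12155 on the autosomes (26.7%, 25.9 to 27.5). The share was highest on chromosome 11 (32.9%, 29.6 to 36.2), which also had the most members for its length, 2.19 per Mb, against 0.738 on the X chromosome. Of the members without DHS, 22 (8.49%, 5.40 to 12.6) lay on the X chromosome, against 3.25% (2.65 to 3.93) of members with a DHS. Of all 12963 joined domains, 797 lay there, a share within the interval of the members without DHS.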
